A study of Homo sapiens with 78 samples.

Results

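DUSP4, DUSP6, SPRY2, SPRY4, SPRED1, SPRED2, ETV4, ETV5, PHLDA1 and EPHA2 are genes whose RNA follows the activity of the ERK kinases, and several of them encode proteins that damp the same pathway. These 10 genes are defined by name, with no threshold on a measured value, although the list was drawn up with earlier results of these data known. They stand among 62744 genes and unmatched transcripts in the deposited tables. Their levels were compared between single A375 and single Jurkat cells, and the way they vary from one A375 cell to the next was described. A375 is a human melanoma cell line that carries an activating mutation of the kinase BRAF. Jurkat is a human T cell leukemia line, whose RAS-ERK pathway is coupled to the T cell receptor.

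In the RAS-ERK pathway, a receptor at the membrane loads RAS with GTP, RAS recruits the RAF kinases, RAF phosphorylates MEK, and MEK phosphorylates ERK. Active ERK switches on transcription of a group of genes that includes its own brakes. The DUSP phosphatases remove phosphate from ERK, and the Sprouty and Spred proteins act further up, at RAS and RAF. In melanoma cells with mutant BRAF this group is a commonly used readout of how strongly the pathway drives transcription.

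Single live cells, negative for the dead cell stain 7-AAD, were placed in microplates by FACS, with A375 stained for CD47 and sorted into PBS and Jurkat stained for CD81 and sorted into lysis solution. A total RNA library was prepared from each cell with 1 of 2 reagent kits, #634413 (SMARTer Stranded v2 Pico Input) or #634444 (SMART-Seq Stranded), with 21 A375 wells and 18 Jurkat wells for each. No treatment is labelled for any well. Wells with at least 200000 estimated counts were used, which left 17 and 16 A375 wells and 18 and 18 Jurkat wells, or 69 of 78. Each line was sorted into a liquid of its own, so that effects of the line and of the sort buffer cannot be told apart, and no culture is named for the wells of a line. Each group was therefore treated as 1 sample, and the spread over wells is given as a description without a test.

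Totals of the wells used ranged from 231540 to 2567265 estimated counts. The protein coding share of a well's estimated counts on all targets was 44.4% or more in all of them except a pair of A375 wells of kit #634413. These stood at 4.84% (replicate 8) and 10.5% (replicate 11), and overlap and co-variation are given with and without them. Every minimum of 0 CPM given below for A375 with that kit came from these wells alone, except for SPRY4. Without them, the lowest A375 well of the other genes lay between 0.79 CPM (PHLDA1) and 53.9 CPM (DUSP4). The labels were checked with marker genes. All 12 T cell markers were at least 2-fold lower in A375 with both kits, and their summed level was 0 to 62.7 CPM in A375 wells against 1549 to 4279 CPM in Jurkat wells. Of the 12 melanoma line markers, 9 could be compared and 8 were at least 2-fold higher in A375, among them SOX10, a neural crest transcription factor. The pigment genes PMEL, MLANA and TYR had means of 3.13 CPM or less in A375 with each kit. The highest of these means, PMEL with kit #634413, had an SD of 12.9 CPM over wells. Of 6 fibroblast markers, DCN, LUM, PDGFRA and THY1 were at 0 in all A375 wells of kit #634413, and with kit #634444 the 6 summed to at most 29.7 CPM in an A375 well.

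RefSeq windows upstream of the start (GRCh38.p14, 250 bases) were found for 7 of the 10 genes, and 3 of them are printed because they hold a letter pattern of a factor that acts at the end of this pathway. Searched on both strands were the ETS core CCGGAA, the AP-1 pattern TGANTCA, the CRE TGACGTCA and the patterns TGAATGAA and TGAATGGA bound by CIC, a repressor that ERK signalling inactivates. Capitals mark the matches, which for PHLDA1 is the ETS core read on the other strand.
SPRY2, chr13:80341127-80341376, minus strand: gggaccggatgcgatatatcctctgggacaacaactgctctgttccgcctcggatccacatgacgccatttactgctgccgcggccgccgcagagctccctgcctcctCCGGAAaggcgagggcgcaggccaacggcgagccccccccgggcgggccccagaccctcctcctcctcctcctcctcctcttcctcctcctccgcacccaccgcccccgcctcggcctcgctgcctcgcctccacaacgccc
PHLDA1, chr12:76031777-76032026, minus strand: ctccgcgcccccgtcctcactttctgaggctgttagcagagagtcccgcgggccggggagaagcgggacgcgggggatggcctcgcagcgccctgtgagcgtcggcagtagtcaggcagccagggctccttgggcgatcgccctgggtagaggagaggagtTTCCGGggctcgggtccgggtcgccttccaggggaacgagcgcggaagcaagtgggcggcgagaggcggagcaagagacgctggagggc
EPHA2, chr1:16156070-16156319, minus strand: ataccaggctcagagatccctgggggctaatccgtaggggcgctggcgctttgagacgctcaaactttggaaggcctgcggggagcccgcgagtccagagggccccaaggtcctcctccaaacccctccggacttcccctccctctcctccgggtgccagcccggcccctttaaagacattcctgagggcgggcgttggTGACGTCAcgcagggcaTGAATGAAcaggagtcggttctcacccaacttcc

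The ETS core stood 142 bases before the SPRY2 start of the printed window and 89 bases before the PHLDA1 start, and 14.5% of all 35116 windows hold it. SPRY2 had further windows, at other starts, that held none of the patterns, and SPRED2 also had more than a single window. The shares are per window, so they do not compare directly with genes. In the EPHA2 window the CRE began 51 bases and TGAATGAA 34 bases before the start, and 1.65% and 1.4% of all windows hold these patterns. AP-1, found in 6.57% of windows, and TGAATGGA, found in 0.832%, were in no window of the 7 genes. The matches describe letters and show no binding.

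Of the 10 genes, 9 were at least 2-fold higher in A375 than in Jurkat with each kit, and the tenth, SPRED2, differed by less than 2-fold in its means. Against this stands a background of 28.4% of the 15023 genes compared with kit #634413, 27.3% of the 14316 compared with kit #634444, and 20.4% of 13551 genes with both. At a threshold of 10-fold, a limit set once the values were known, 8 of the 10 were higher with both kits against 8.77% of all genes. The median log2 ratio of the 10 genes was 9.67 and 6.20, beside -0.06 and 0.01 over all genes compared. Levels are estimated counts scaled to the well's sum on Ensembl transcripts (counts per 1000000, CPM), averaged over wells. Where a line had no count, its level was set to 3 counts over the group and the fold is a lower bound, which covers counting error only and is a bound on the mean over wells. Where a line had 1 or 2 counts, the ratio of summed counts is given with its exact two-sided interval, a wider allowance than 3 counts.

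**Figure D1:**
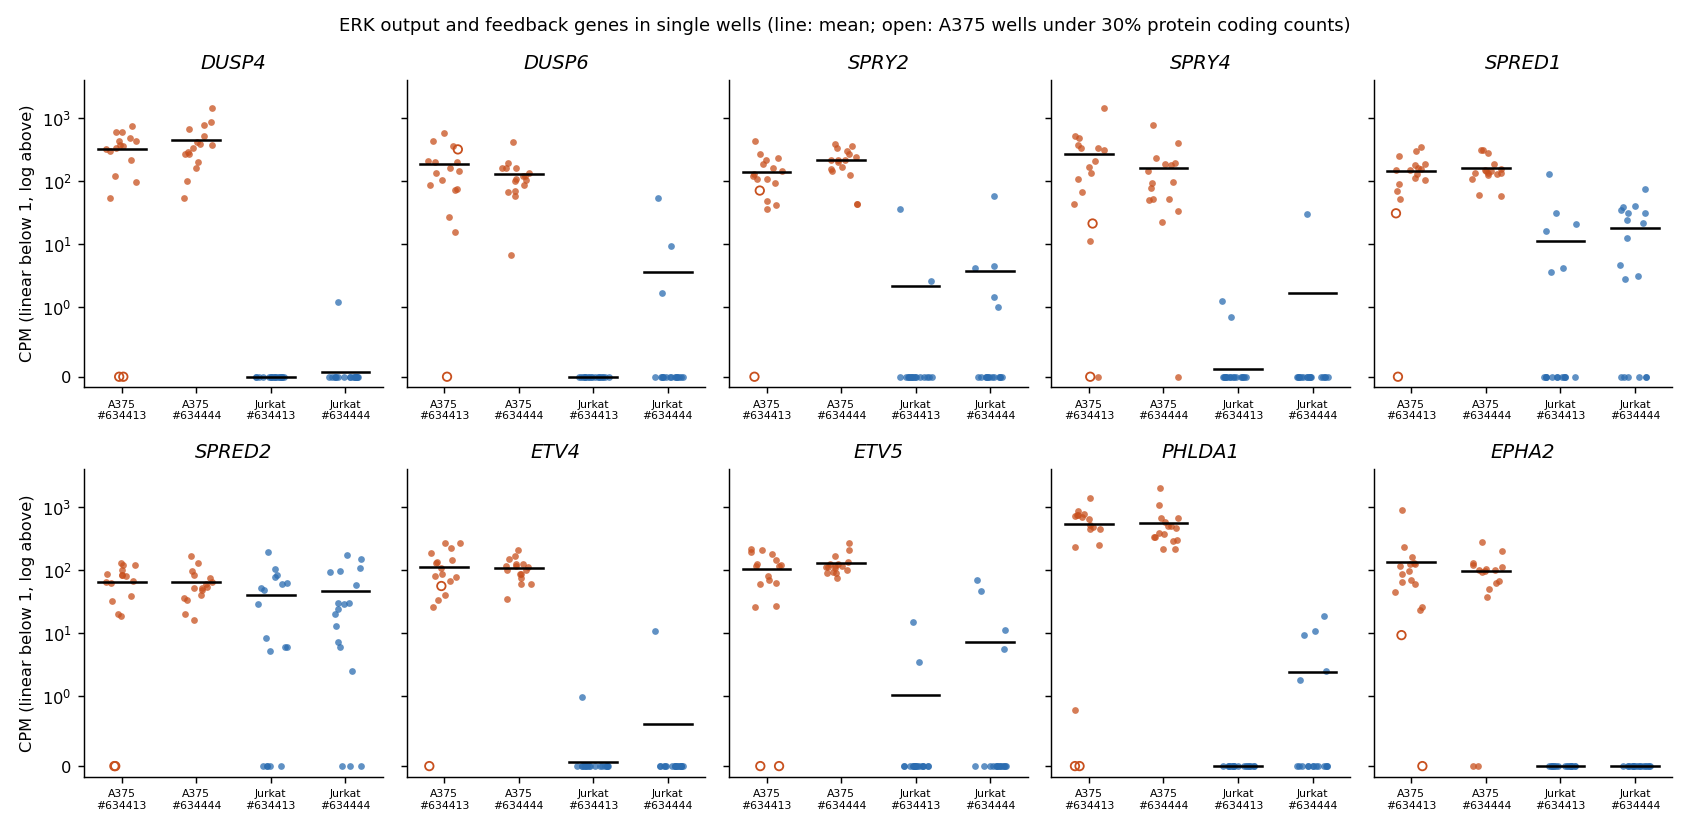
CPM of each gene (vertical axis, linear below 1 and logarithmic above) in every well used, with A375 in orange and Jurkat in blue for each kit, lines at the means, and open circles for the 2 A375 wells with a low protein coding share. Apart from SPRED1 and SPRED2, most Jurkat wells sit at 0 while most A375 wells lie between 10 and 1000 CPM.

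DUSP4 and DUSP6 encode dual specificity phosphatases that inactivate ERK, DUSP4 in the nucleus and DUSP6 in the cytoplasm. DUSP4 (ENSG00000120875) ranged in A375 from 0 through a median of 335.0 to 739 CPM with kit #634413, and from 52.3 through 348 to 1422 CPM with kit #634444. In Jurkat it had no count in 18 wells of the first kit and 1 count in 18 wells of the second, a single well at 1.20 CPM. The mean was at least 1669-fold higher in A375 with kit #634413. With kit #634444 the ratio of summed counts, 5075 to 1, was 4808 per unit of depth with a 95% exact counting interval of 863 to 189942. With kit #634444 every A375 well was above every Jurkat well, and with kit #634413 only the 2 wells of low protein coding share were at 0.

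DUSP6 (ENSG00000139318, 12:89347235-89352501) had medians of 140.3 CPM (0 to 576) and 113 CPM (6.71 to 417) in A375. Jurkat had no count of it with kit #634413, and 38 counts with kit #634444, of which 29 came from 1 well at 52.8 CPM. The mean was at least 950.3-fold higher in A375 with the first kit and 36.3-fold higher with the second, or 204-fold without that Jurkat well (replicate 8). The groups overlapped with kit #634444 because 1 A375 well held 4 counts, or 6.71 CPM, below that Jurkat well.

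SPRY2 and SPRY4 are Sprouty proteins, feedback inhibitors of receptor signalling to RAS and RAF. SPRY2 (ENSG00000136158, 13:80335976-80341126) ranged from 0 through 119 to 421 CPM and from 42.6 through 212 to 377 CPM in A375. Its Jurkat wells were at 0 except for 2 wells of kit #634413, the highest at 35.5 CPM, and 5 wells of kit #634444, the highest at 56.5 CPM. The means were 65.7-fold and 56.2-fold higher in A375, and 924-fold and 327-fold without those highest Jurkat wells (replicates 14 and 15). Of 16 A375 wells, 14 were above the highest Jurkat well with kit #634444.

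SPRY4 (ENSG00000187678, 5:142310427-142326455) varied more between A375 wells than the other Sprouty. Its level ran from 0 through 165 to 1429 CPM with kit #634413 and from 0 through 93.3 to 773 CPM with kit #634444, and the SD over wells exceeded the mean with both kits (CV 1.30 and 1.20). Among A375 wells without a low protein coding share, 1 well of each kit held no SPRY4 count. In Jurkat it had 2 counts with kit #634413, a ratio of summed counts of 1860 with a counting interval of 515 to 15368. With kit #634444, all 14 Jurkat counts came from 1 well, and the mean was 96.3-fold higher in A375, or at least 647-fold without that well (replicate 12).

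SPRED1 and SPRED2 carry a Sprouty-related domain and bring the RAS GTPase activating protein neurofibromin to the membrane. SPRED1 (ENSG00000166068, 15:38252836-38357249) ranged from 0 through 146 to 339 CPM and from 56.3 through 139 to 304 CPM in A375. Jurkat wells reached 127 CPM and 73.3 CPM, with medians of 0 and 8.52 CPM and at least 1 count in 6 and 12 of 18 wells. The means were 12.7-fold and 9.05-fold higher in A375. With kit #634413 the ratio was 32.3-fold without replicate 13 of Jurkat, the well at 127 CPM, and the wells of the lines overlapped with both kits.

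SPRED2 (ENSG00000198369, 2:65310851-65432637) stood apart from the other 9. Its mean in A375 was 65.1 ± 41.1 CPM (SD, 17 wells) and 63.8 ± 39.2 CPM (SD, 16 wells), against 40.6 ± 50.8 and 46.6 ± 54.2 CPM (SD, 18 wells each) in Jurkat. The log2 ratios were 0.68 and 0.46, below 2-fold, and the highest well of all was a Jurkat well at 192 CPM. The distributions differed in shape, since 5 and 3 of 18 Jurkat wells held no count, against 2 of 17 A375 wells with kit #634413, both of low protein coding share, and 0 of 16 with kit #634444. With kit #634413 the log2 ratio was 1.29 in TPM and 1.81 from medians over wells, and without that Jurkat well (replicate 17) it was 1.04. All of these pass the 2-fold line, so the call for SPRED2 with that kit depends on the summary and on 1 well.

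**Figure D2:**
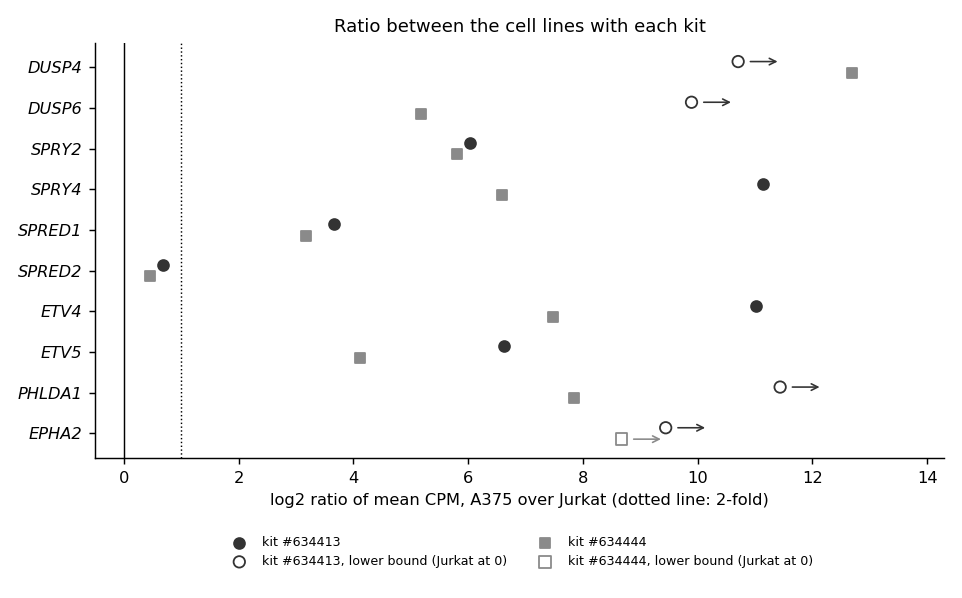
Log2 ratio of mean CPM, A375 over Jurkat (horizontal axis), for each gene with kit #634413 (circles) and kit #634444 (squares); open symbols with arrows are lower bounds, where no Jurkat well had a count, and the filled symbols for SPRY4 and ETV4 with kit #634413 and for DUSP4 with kit #634444 rest on 1 or 2 Jurkat counts. Only SPRED2, at 0.68 and 0.46, lies left of the dotted 2-fold line.

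ETV4 and ETV5 are ETS transcription factors of the PEA3 group that ERK signalling induces. ETV4 (ENSG00000175832, 17:43527844-43579620) ranged from 0 through 85.3 to 273 CPM and from 34.9 through 106 to 206 CPM in A375. Jurkat had 1 count with kit #634413, a ratio of summed counts of 1873 with a counting interval of 336 to 74017, and 5 counts in 1 well with kit #634444, where the A375 mean was 177-fold higher, or at least 436-fold without that well (replicate 13). All A375 wells of kit #634444 were above every Jurkat well.

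ETV5 (ENSG00000244405, 3:186046314-186110318) had the lowest relative spread over A375 wells with kit #634444, from 75.9 through 115 to 269 CPM (CV 0.39), and ran from 0 through 116 to 215 CPM with kit #634413. It was 98.1-fold higher in A375 with kit #634413 and 17.4-fold higher with kit #634444. The smaller ratio went with 75 and 39 counts in a pair of Jurkat wells, at 68.3 and 46.9 CPM, both under the lowest A375 well. Without the higher of these (replicate 16) it was 34.1-fold, and with kit #634413 it was 494-fold without replicate 3 of Jurkat, at 15.2 CPM.

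PHLDA1, a pleckstrin homology-like domain protein, and EPHA2, an ephrin receptor tyrosine kinase, complete the set. PHLDA1 (ENSG00000139289, 12:76025447-76031776) had the highest mean CPM of the 10 in A375, 528 ± 364 (SD, 17 wells) and 556 ± 448 (SD, 16 wells), with wells from 0 through 517 to 1392 and from 213 through 428 to 2035 CPM. Jurkat had no count with kit #634413, which makes the A375 mean at least 2772-fold higher, and 40 counts over 5 wells with kit #634444, where it was 231-fold higher. All A375 wells of kit #634444 were above the highest Jurkat well at 18.7 CPM (replicate 18), without which the ratio was 384-fold. In replicate 12 of the A375 wells of kit #634413 PHLDA1 had 0.94 counts, while DUSP4 stood at 313 and SPRED1 at 339 CPM in the same well.

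EPHA2 (ENSG00000142627, 1:16124337-16156069) had no count in any of the 36 Jurkat wells. In A375 it ranged from 0 through 85.96 to 888 CPM and from 0 through 98.7 to 280.1 CPM, which puts the means at least 696-fold and 408-fold above Jurkat. Of the A375 wells of kit #634444, 2 were also at 0. With kit #634413 a single well, replicate 3 at 888 CPM, was far above the median, and the bound was 448-fold without it.

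Without the 2 wells of low protein coding share, 7 of the 10 genes (DUSP4, DUSP6, SPRY2, ETV4, ETV5, PHLDA1 and EPHA2) had every A375 well above every Jurkat well with kit #634413, and with them none did. SPRY2 met this by the narrowest margin, its lowest A375 and highest Jurkat wells both rounding to 35.5 CPM. PHLDA1 met it with a lowest A375 well of 0.79 CPM, from 0.94 counts, against 0 in Jurkat. With kit #634444 the 4 genes without overlap were DUSP4, ETV4, ETV5 and PHLDA1. Over all genes compared in the same wells, 1.48% and 1.84% had every A375 well higher. This count was added after the values had been seen.

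Between kits, none of the 10 genes differed by 2-fold in A375, where 15.9% of 14800 genes did in either direction. The log2 ratios of kit #634444 over kit #634413 ran from -0.73 for SPRY4 to 0.60 for SPRY2. Leaving out replicate 8 of kit #634444 took SPRY4 to -1.16, past 2-fold, and leaving out replicate 3 of kit #634413 took EPHA2 from -0.45 to 0.18. In Jurkat only SPRED1, SPRED2 and ETV5 had enough counts to compare, and ETV5 was 7.04-fold higher with kit #634444, against 21.8% of 12903 genes called. That ratio was 3.59-fold without replicate 16 of kit #634444 and 35.4-fold without replicate 3 of kit #634413, and SPRED1 went from 1.56-fold to 3.96-fold without replicate 13 of kit #634413. Counts of the 8 genes other than the SPREDs summed to 44 in Jurkat with kit #634413 and to 284 with kit #634444.

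These Jurkat counts sat in few wells. Of the 288 values of the 8 genes in 36 Jurkat wells, 27 held at least 1 count and 14 at least 5. SPRED1 and SPRED2, left out here, had a count in 18 and 28 of the 36 wells, so the scarcity holds for the 8 genes only. The same share over all genes is not given. None of the 8 was detected in 11 of 18 Jurkat wells with kit #634413 and in 4 of 18 with kit #634444. Replicate 15 of kit #634444 held both 47 SPRY2 counts and 39 ETV5 counts. TNC, an extracellular matrix gene that averaged 777 and 1077 CPM in A375, had no count in any Jurkat well. It was 1 of 7 melanoma line markers, out of 12, without a count in Jurkat with kit #634413, and 1 of 5 with kit #634444. Other markers higher in A375 did have Jurkat counts, such as SOX10 at 0.68 CPM with kit #634444 and LGALS1 at 0.73 CPM with kit #634413.

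Summed over the 10 genes, A375 wells ranged from 9.27 through a median of 2108 to 3845 CPM with kit #634413 and from 838 through 1889 to 4288 CPM with kit #634444. Jurkat wells ranged from 0 through 40.5 to 209 CPM and from 5.02 through 63.1 to 278 CPM. The well at 9.27 CPM is replicate 8, with 1 EPHA2 count as its only count of the set, and replicate 11 stood at 491 CPM with 5 genes detected. A median of 10 of the 10 genes was detected in A375 wells with both kits, against 1 and 2.5 in Jurkat wells.

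Depth differs between wells, so detection was repeated after every well was thinned to 107863 counts. Over both kits, 29 (EPHA2) to 32 of 33 A375 wells then held a count of each gene. In Jurkat, SPRED2 was detected in 26 and SPRED1 in 17 of 36 thinned wells (28 and 18 before thinning), and the other 8 genes in 0 to 3 wells (0 to 7 before thinning). EPHA2 had no count in 18 Jurkat wells of each kit, before or after thinning, for which the exact 95% binomial interval allows up to 18.5% of wells with a count. For DUSP4 the same limit holds with kit #634413, and with kit #634444, at 1 of 18 wells before thinning, it was 27.3%. These limits concern wells with a count, not cells that express the gene, and cover counting error only, since PCR copies are not independent molecules.

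Per length of transcript, in TPM, the 10 genes lay close together in A375. Means ran from 25.01 (SPRED2) to 88.8 (ETV5) TPM with kit #634413 and from 25.3 (EPHA2) to 78.6 (ETV5) TPM with kit #634444, and no neighbours in the order differed by more than the SD over wells. The ETV5 mean with kit #634413 rests on replicate 18, at 812 TPM from 51 counts, and was 43.6 TPM without it. PHLDA1, first by CPM, had means of 58.6 and 60.04 TPM. By medians PHLDA1 was above ETV5 with kit #634413 (61.02 against 53.7 TPM) and below it with kit #634444 (45.01 against 73.4 TPM).

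Counts were also followed to single transcripts, over both kits. PHLDA1-202 took 99.1% of PHLDA1 counts in A375 and all 40 in Jurkat. In A375, 90.2% of EPHA2 counts fell on EPHA2-201 and 81.3% of SPRY4 counts on SPRY4-201. In Jurkat 14 of the 16 SPRY4 counts, all from 1 well, fell on SPRY4-204, a transcript with no defined coding sequence that took 1.41 of 6083 counts in A375. All 6 Jurkat counts of ETV4, 5 of them from 1 well, fell on transcripts annotated as retained introns, against 88.8% on protein coding transcripts in A375. ETV5-201 took 69.1% of A375 counts, and ETV5-203 took 49.5% of the 143 Jurkat counts. SPRED2-201 led in both lines, at 72.4% in A375 and 60.2% in Jurkat.

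Other genes of the pathway show how far the difference between lines reached. The list of these genes was chosen with earlier results of these data known. Of 17 further ERK output and feedback genes, 15 were compared, and 9 were at least 2-fold higher and 2 lower in A375 with both kits, beside 20.4% and 17.3% of all genes. The 6 with the largest smaller ratio were CCND1 (cyclin D1), FOSL1 (an AP-1 subunit), ERRFI1 (an inhibitor of EGFR), EPHA4, ETV1 and IER3, with log2 ratios from 4.30 for IER3 to 11.80 for ERRFI1 over the kits, which are lower bounds where Jurkat had no count. CCND1, at 487 and 437 CPM in A375, had no count in Jurkat with either kit. DUSP5, SPRED3 and FOS were the other 3 that were higher. DUSP2, a phosphatase of activated lymphocytes, and MYC were lower in A375, with log2 ratios of -3.55 and -3.67 for DUSP2 and -1.36 and -3.27 for MYC.

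The core of the cascade differed less. Of 12 genes from RAS to ERK, none was at least 2-fold higher in A375 with both kits, beside 20.4% of all genes. Only 1 was lower, beside 17.3%. That gene was MAP2K2, which encodes a form of MEK, at log2 -1.42 and -1.56. The list's median log2 ratios were -0.16 and -0.52. BRAF itself averaged 96.2 and 81.5 CPM in A375 and 32.9 and 65.2 CPM in Jurkat, with log2 ratios of 1.55 and 0.32. Of 9 ERK substrates, RPS6KA2 and ELK3 were higher and MKNK2 lower with both kits, shares near the 20.4% and 17.3% of all genes.

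Upstream, 6 of 8 receptor tyrosine kinases were at least 2-fold higher in A375 with both kits, beside 20.4% of all genes. AXL, which is also on the list of melanoma line markers, was at 102 and 163 CPM in A375 and 0.05 and 0.36 CPM in Jurkat, ERBB3 at 506 and 490.0 against 1.62 and 0.17 CPM, and MET at 132 and 155 against 0 and 0.80 CPM. EGFR, PDGFRB and ERBB2 were the other 3. Of 11 exchange factors, adaptors and GAPs, SHC1, RASA1, SOS1 and NF1 were higher, led by SHC1 at log2 2.62 and 2.60 and RASA1 at 1.83 and 1.79. GRB2 and RASGRP1 were lower. These 4 and 2 of 11 stand beside 20.4% and 17.3% of all genes. RASGRP1, the diacylglycerol-driven RAS exchange factor of T cells, was at 1.35 and 1.47 CPM in A375 and 82.9 and 111 CPM in Jurkat.

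**Figure D3:**
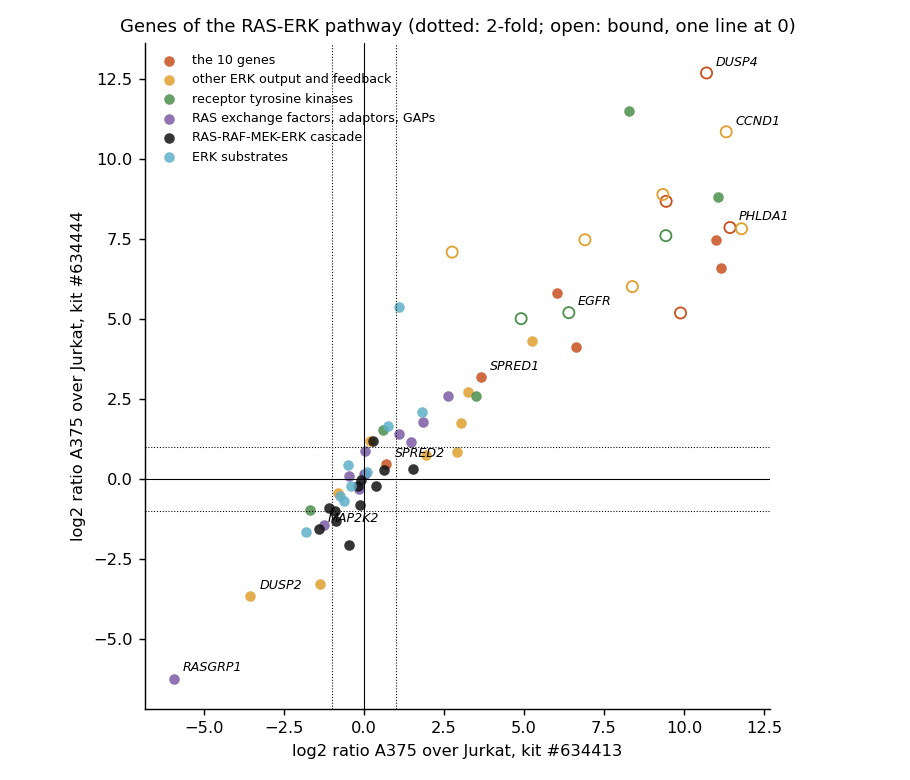
Log2 ratio A375 over Jurkat with kit #634413 (horizontal axis) and kit #634444 (vertical axis) for the compared genes of 6 pathway lists, coloured by list, with dotted lines at 2-fold and open circles where a line had no count with at least 1 kit. The 10 genes (red) and other output genes (yellow) extend to the upper right, the 12 cascade genes (black) cluster near 0, and RASGRP1 is lowest.

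Between single A375 wells, pairs of the 10 genes were positively related more often than all gene pairs with kit #634444. With kit #634413 such an excess rested on the 2 wells of low protein coding share. The genes of all pairs were not matched to the 10 genes in level, and low counts can weaken rho. The part of level in the excess was not tested. Spearman's rho was taken over the thinned counts for each of the 45 pairs, as a description, since wells share the depth and RNA yield of their library. With kit #634413 the median was 0.24 over 17 wells, beside 0.16 over all pairs of 8427 genes detected in at least 50% of the wells, and 39 of 45 pairs (86.7%) were above 0 beside 73.5% of all pairs. By Pearson's correlation of log2(CPM + 10) it was 0.39 beside 0.24, with 45 of 45 pairs above 0. Without the 2 wells of low protein coding share it was 0.0054, beside 0.0067 over all pairs, and 23 of 45 pairs were above 0 beside 51.0% of all pairs. With kit #634444, where no well stood apart in this way, the median was 0.13 over 16 wells beside 0.01 over all pairs of 10523 genes, and 33 pairs (73.3%) were above 0 beside 51.8% of all pairs.

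No pair reached 0.5 with both kits. SPRY4 and PHLDA1 came nearest, at 0.49 and 0.66, followed by SPRY2 and SPRY4 at 0.52 and 0.47 and DUSP4 and EPHA2 at 0.39 and 0.49. Without the low wells, the first-kit values of these pairs were 0.35, 0.38 and 0.18. DUSP6 with PHLDA1 (0.27 and 0.64) and DUSP6 with SPRY4 (0.32 and 0.50) were also above 0 with both kits then. SPRY2 with ETV4 was at -0.51 with kit #634444 and at 0.15 with kit #634413 without the low wells. Of the 45 pairs, 16 were above 0 and 5 below 0 with both kits without the low wells, against 30 and 3 with them.

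**Figure D4:**
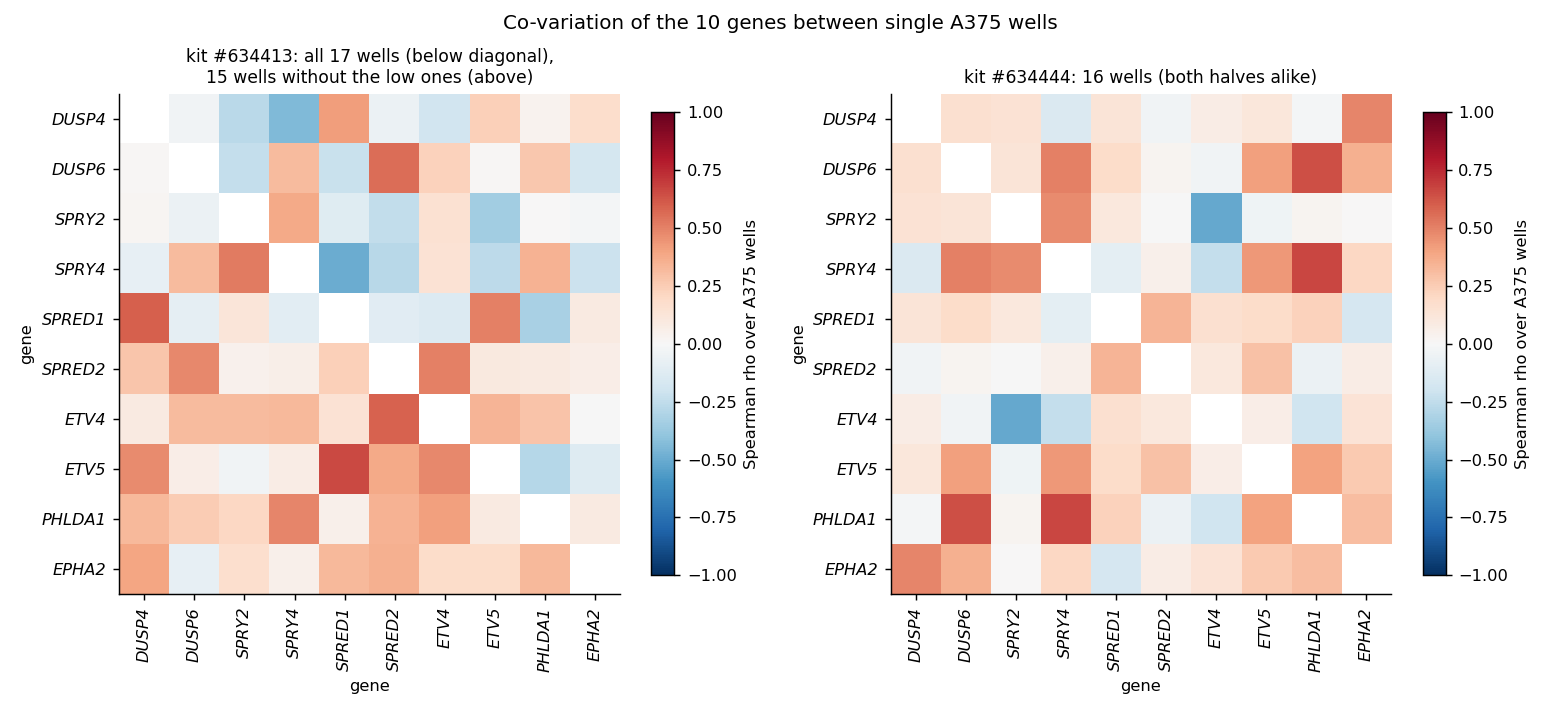
Spearman rho (colour, blue negative to red positive) between each pair of the 10 genes over A375 wells on thinned counts; in the left panel the part below the diagonal uses all 17 wells of kit #634413 and the part above it the 15 wells without the low ones, and the right panel shows the 16 wells of kit #634444. Most of the red in the lower left pales or turns blue above the diagonal, and SPRY4 with PHLDA1 is red in all of them.

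Some genes of the set varied with the depth of their well, in either direction. With kit #634413 without the low wells, rho with the total count was -0.63 for SPRY2, and 0.48 for both DUSP4 and ETV5, on thinned counts. Over all 17 wells of that kit it was -0.22 for SPRY2 and 0.64 for both DUSP4 and ETV5, so these values depend on the 2 low wells. With kit #634444 the 10 genes lay between -0.28 (SPRED1) and 0.27 (EPHA2). The part of depth in the pair values was not tested.

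A score of the set, the mean of log2(CPM + 10) over the 10 genes, was set against all other genes detected in at least 50% of the A375 wells of each kit, 8207 in number. The 5 with the highest mean rho over kits were ALDH1A3 (0.84 and 0.74), an aldehyde dehydrogenase that makes retinoic acid, MYL6 (0.71 and 0.76), a myosin light chain, TLK1 (0.88 and 0.55), a kinase of the replication stress response, DDX3X (0.69 and 0.71), an RNA helicase, and COX20 (0.86 and 0.52), an assembly factor of cytochrome c oxidase. The median over all these genes was 0.12. Without the low wells ALDH1A3 was first at 0.85 and 0.74, and the other 4 ranked from 2 to 8. That ranking reuses all 16 wells of kit #634444 and 15 of the 17 of kit #634413, so it is no independent check. The 5 genes are the top of 8207, and the rho that the top of such a ranking reaches by chance was not computed. ALDH1A3 averaged 259 and 198 CPM in A375 and had no count in Jurkat.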

How the data were processed

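The authors trimmed reads with cutadapt and quantified Ensembl v91 transcripts and spike sequences with Kallisto 0.43.1 in stranded mode, and deposited for each well the estimated counts, which are not normalized, and TPM values. The submitters' processing notes also name STAR 2.5.3 and hg38. Of 200471 targets, 200206 were Ensembl transcripts, and the other 265 (spikes and rDNA) entered no gene. Counts and TPM of the 56 transcripts of the 10 genes were summed with GENCODE v44, which holds 195850 of the Ensembl transcripts. Kallisto shares out reads that fit several transcripts, so counts of single transcripts are estimates.

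Here estimated counts were divided by the well's Ensembl counts (CPM), averaged over wells of a group, and compared as log2 ratios of means for genes with at least 100 summed counts. Called means at least 2-fold. No test was run, because each group is 1 sample. The ratio procedure was tested on simulated negative binomial counts with known folds, which did not copy the Jurkat counts held in single wells. That test therefore gives no error rate for the calls made here. The 10 genes and all lists were chosen with earlier results of these data known. Named genes were the 10, genes of the lists called alike with both kits (with values for at most 6 per list), and the 5 genes most like the score. A few others (BRAF, TNC and single list genes) were named after their values had been seen. TMM (edgeR 4.0.16) and poscounts (DESeq2 1.42.0) gave alternative scalings. Tables and plots were made in R 4.3.3 and in Python 3.11.15 (pandas 2.3.3, scipy 1.17.1, numpy 2.4.6, matplotlib 3.10.9). Totals of all wells ranged from 909 to 2567265.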

Additional observations from a re-analysis of the deposited data

Results flagged for a closer look

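The 9 A375 wells with fewer than 200000 estimated counts took no part in the comparisons and were looked at because they lie outside the main measurement. The 4 such wells of kit #634413 held 154 counts of the 10 genes, 133 in replicate 15 and 21 in replicate 13, and none in the 2 wells with 909 and 1331 counts in all. The 5 such wells of kit #634444 held 8 counts, all in replicate 1. The protein coding share was 20.2% in replicate 15, 6.90% in replicate 13 and 5.99% in replicate 1. No well of the Jurkat groups fell below the limit, so that these wells have no counterpart in Jurkat.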

How the results depend on the processing

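The count of 9 higher genes between lines was 9 or 10 under every alternative run with kit #634413 (all wells, no low wells, counts per all targets or per protein coding genes, TMM, poscounts, TPM, summed counts, medians, leaving out each well) and 9 under each with kit #634444, and no log2 ratio of the 10 genes between lines changed sign. Between kits, leaving out each well gave 0 to 1 called genes in A375 and 1 to 2 in Jurkat. Genes called over all genes compared moved from 8383 to 16012 and 2942 with kit #634413, and from 7220 to 15839 and 2270 with kit #634444, when at least 10 or at least 1000 summed counts were asked, because other numbers of genes were then compared. In Jurkat, 2 genes in place of 1 passed 2-fold between kits when counts were summed over wells. The median pair rho of kit #634413 fell to 0.0054 without the wells under 30% protein coding share. The median number of Jurkat wells with a gene was 0 and 2 thinned, 1.5 and 3.5 not thinned, and 0.5 with kit #634444 when 5 counts were asked. Scaling shifted the median of all genes by 0.19 and 0.11 (protein coding), -0.13 (poscounts, kit #634413) and 0.13 (TMM, kit #634444) on the log2 scale. With medians over wells the log2 ratio of ETV4 with kit #634413 went from 11.01 to 6.43, that of DUSP4 with kit #634444 from 12.68 to 8.45 and that of SPRED1 with kit #634413 from 3.67 to 7.20, and with TPM that of SPRY4 with kit #634444 went from 6.59 to 4.33. No paired analysis was possible because the labels number no replicates: the numbers used here follow accession order and only name wells, and no index number is shared. Alternatives were fixed with earlier results known, and the 10-fold threshold, leaving out wells one at a time and the pair, likeness and overlap values without low wells were added after seeing the data.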
